A study of Rattus norvegicus with 52 samples.

Results

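The genes of fatty acid, triglyceride and cholesterol synthesis and of the milk fat droplet were followed in sorted rat mammary epithelium. The 43 members were chosen by name, for their known roles, among the 17356 genes counted in each of 48 RNA-seq libraries. Earlier results of these data were known when they were chosen, so shares of members beside all genes are descriptive. All 43 were found. The study asked how loss of Cdkn1b, which encodes the cell cycle inhibitor p27, alters the mammary gland of ACI rats, a strain in which estradiol (E2) induces mammary tumors. Cdkn1b+/+ and Cdkn1b-/- ACI females were compared at 9 weeks in 4 sorted populations of 2 libraries per genotype: basal/myoepithelial cells, mature luminal cells, and luminal progenitors sorted either as Cd49b+ or as PNA+, PNA being a lectin that binds cell surface sugars. At 4 weeks there were 11 libraries of basal and luminal cells of both genotypes (2 or 3 per group), and at 6 weeks 9 libraries (2 or 3 per group). In a further 12 libraries, basal and luminal cells came from control and E2-treated females without the deletion, of the ACI strain (2 libraries per group) and of the BN strain, which is resistant to such tumors (1 library per group), with no age or duration of treatment in the labels. The knockout is a germline CRISPR-Cas9 deletion in a coding exon, carried by every cell of the rat, made in Sprague-Dawley zygotes and then backcrossed to ACI, so that changes in the epithelium and in the hormones that reach it cannot be told apart. Titles of the BN libraries carry a pair of animal numbers each, and titles of the E2 luminal libraries also carry CD49b and PNA. At 4 and 6 weeks and in the E2 experiment, all but 1 basal and 1 luminal library form pairs of both cell types with a shared title stem. Whether the 9-week libraries of a group came from separate rats is not stated, so p-values measure the spread between libraries. Titles of the younger libraries also carry a number beside the age label: 3.4 for Cdkn1b+/+ basal 1 and luminal 1 of 4 weeks and 4 for the others of that age, and 5.3 for Cdkn1b-/- basal 1 and luminal 1 of 6 weeks and 5.9 for the others of that age.

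Fatty acids are built from citrate in the cytosol: Acly frees acetyl-CoA, Acaca carboxylates it, Fasn elongates the chain and Me1 supplies NADPH. The acids are then desaturated, elongated, esterified by Gpam, Lpin1, Dgat1 and Dgat2, and in the lactating gland wrapped into droplets that leave the luminal cell with Plin2, Btn1a1 and Xdh on their surface. Cholesterol is made from the same acetyl-CoA by the mevalonate pathway, and the transcription factors Srebf1 and Srebf2, held in the endoplasmic reticulum with the help of Insig1, switch on both pathways. Milk fat is a main product of the mammary gland, and the luminal cells that make it stand on a layer of contractile basal cells.

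Promoter sequences of the 250 bases before the start site were found in RefSeq (assembly GRCr8) for 33 of the 43 members. They are shown for the 3 genes that rose in Cdkn1b-/- progenitors (Acss2, Aacs and Me1), for a pair that was high in luminal cells (Thrsp and Xdh) and for 1 cholesterol gene that was high in basal cells of the E2 experiment (Idi1). Acss2 lies at chr3:164464453-164464702 (plus strand), Aacs at chr12:36817775-36818024 (minus strand), Me1 at chr8:96540245-96540494 (minus strand), Thrsp at chr1:161138965-161139214 (minus strand), Xdh at chr6:27282069-27282318 (plus strand) and Idi1 at chr17:66547525-66547774 (minus strand). Each is written 5′ to 3′ on the strand of its gene, and capitals mark CCAAT read on either strand, a motif bound by the factor NF-Y. The reads were counted on another build (rn6), so the coordinates are not those of the files.
Acss2: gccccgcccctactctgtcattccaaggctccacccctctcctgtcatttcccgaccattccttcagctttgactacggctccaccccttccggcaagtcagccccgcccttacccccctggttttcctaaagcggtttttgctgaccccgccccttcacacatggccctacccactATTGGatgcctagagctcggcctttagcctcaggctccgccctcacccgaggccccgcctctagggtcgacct
Aacs: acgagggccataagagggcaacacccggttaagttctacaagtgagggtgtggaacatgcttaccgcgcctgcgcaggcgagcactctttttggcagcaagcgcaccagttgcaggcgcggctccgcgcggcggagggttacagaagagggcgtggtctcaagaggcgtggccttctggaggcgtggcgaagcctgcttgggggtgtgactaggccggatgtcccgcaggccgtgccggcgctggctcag
Me1: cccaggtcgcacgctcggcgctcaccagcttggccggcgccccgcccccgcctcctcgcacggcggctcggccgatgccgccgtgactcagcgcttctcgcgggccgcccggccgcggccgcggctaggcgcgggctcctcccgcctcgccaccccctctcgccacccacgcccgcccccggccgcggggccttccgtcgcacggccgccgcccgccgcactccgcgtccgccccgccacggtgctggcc
Thrsp: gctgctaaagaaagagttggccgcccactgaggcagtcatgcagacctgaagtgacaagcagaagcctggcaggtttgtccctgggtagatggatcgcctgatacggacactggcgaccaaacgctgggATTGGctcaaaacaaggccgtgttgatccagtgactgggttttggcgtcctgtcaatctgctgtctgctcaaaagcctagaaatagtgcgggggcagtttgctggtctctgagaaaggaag
Xdh: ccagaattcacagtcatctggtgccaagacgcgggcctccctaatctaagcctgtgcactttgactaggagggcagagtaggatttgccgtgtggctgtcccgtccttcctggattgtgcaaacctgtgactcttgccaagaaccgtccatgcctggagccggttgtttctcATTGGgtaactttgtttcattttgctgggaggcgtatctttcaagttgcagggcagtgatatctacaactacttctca
Idi1: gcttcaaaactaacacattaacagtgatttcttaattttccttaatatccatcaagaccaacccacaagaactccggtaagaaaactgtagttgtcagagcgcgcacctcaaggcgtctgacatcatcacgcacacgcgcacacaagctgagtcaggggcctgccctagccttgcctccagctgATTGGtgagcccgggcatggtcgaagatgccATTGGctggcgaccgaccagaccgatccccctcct
A member counted when any of its windows held the motif (Plin2 and Srebf1 had 2 each), whereas all promoters were counted window by window. CCAAT stood in the window of 23 of 33 members, or 69.7%, against 34.02% of all 33469 promoters of this length. Among cholesterol genes it stood in 10 of 12. The GC box GGGCGG, read on both strands, stood in 20 of 33 members against 30.5% of all promoters, and the E-box CACGTG in 4 (Elovl5, Insig1, Plin2 and Sc5d) against 5.59%. The letters TCACNCCAC, a form of the sterol regulatory element, were in no member's window and in 0.974% of all promoters. Of the 3 genes that rose in the progenitors, Acss2 held CCAAT and the windows of Aacs and Me1 held none.

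The libraries held between 7985619 and 33859550 counted reads (median 21857130.5), and the members together took 0.257% to 1.72% of them. Levels are given in CPM, read counts scaled to a common library size, with sizes corrected by TMM, a factor set from the bulk of the genes within the 9-week set, the set of both younger ages and the E2 experiment. At 9 weeks Cdkn1b transcripts lay between 1.80 and 4.61 CPM in the 8 Cdkn1b-/- libraries and between 6.15 and 15.7 CPM in the 8 Cdkn1b+/+ libraries, with no overlap. At 4 weeks Cdkn1b lay between 5.19 and 18.8 CPM in Cdkn1b-/- and between 14.3 and 41.4 CPM in Cdkn1b+/+ libraries, and at 6 weeks between 10.2 and 36.7 CPM and between 3.48 and 43.9 CPM, so that the genotypes overlapped at both ages. The deletion removes a small part of the transcript, so reads of the gene remain and this is a weak check of the labels. The libraries labelled Cdkn1b-/- luminal 2 and Cdkn1b+/+ basal 3 at 6 weeks, and basal 1 and luminal 1 of E2-treated ACI rats, had 10 or more counts for fewer than 9000 genes and stood apart from the rest. At 9 weeks, the hormone-sensing markers Foxa1 and Prlr were lower in Cdkn1b+/+ libraries labelled mature luminal than in progenitors (Prlr 33.5 ± 6.53 CPM, SD, n = 2, against 107 ± 14.3 CPM, SD, n = 4), and the progenitor factor Elf5 was higher in them (93.6 ± 16.4 against 46.9 ± 6.81 CPM), which goes against the usual pattern for these names. The 6 basal markers summed to between 10239 and 14745 CPM in the 9-week basal libraries and to between 131 and 1564 CPM in the others. In bulk RNA, fewer cells of a type and less RNA per cell cannot be told apart.

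Acss2, Aacs and Me1 were higher in Cdkn1b-/- than in Cdkn1b+/+ luminal progenitors. Among the 43 members these 3 rose and none fell (edgeR's quasi-likelihood test, adjusted p under 0.05 over 12809 genes), where 3.4% of all genes tested passed, 2.12% higher and 1.29% lower. All 3 belong to the 7 genes of fatty acid synthesis, a role in which all 7 members had a fold change above 0 (52.8% of all genes did), and the median log2 fold change was 1.07, beside 0.03 over all genes tested. The 16 cholesterol genes had a median of -0.13, and none of them passed.

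Acss2, which makes acetyl-CoA from acetate, stood at 21.1 and 46.8 CPM in Cd49b+ and 39.2 and 66.4 CPM in PNA+ progenitors of Cdkn1b-/- rats, and 8.67 and 13.3 CPM and 10.5 and 13.2 CPM in those of Cdkn1b+/+ rats. Every Cdkn1b-/- library lay above every Cdkn1b+/+ library, and the gene rose from 11.4 ± 2.23 CPM (SD, n = 4) to 43.4 ± 18.8 CPM (SD, n = 4) (log2 fold change 1.93, SE 0.44, adjusted p = 0.0302). Here n counts libraries, and Cd49b+ and PNA+ libraries of the same number and genotype are not independent. Me1, the cytosolic malic enzyme, stood at 516 and 271 CPM in Cd49b+ and 513 and 541 CPM in PNA+ progenitors of Cdkn1b-/- rats, and 139 and 214 CPM and 159 and 209 CPM in those of Cdkn1b+/+ rats. Again the genotypes did not overlap, and Me1 rose from 180.0 ± 37.1 CPM (SD, n = 4) to 460.4 ± 127 CPM (SD, n = 4) (log2 fold change 1.35, SE 0.25, adjusted p = 0.0117). Aacs, which activates acetoacetate for fatty acid and sterol synthesis, stood at 55.6 and 45.96 CPM in Cd49b+ and 93.6 and 81.6 CPM in PNA+ progenitors of Cdkn1b-/- rats, and 38.5 and 26.9 CPM and 41.98 and 24.4 CPM in those of Cdkn1b+/+ rats. It rose from 32.96 ± 8.58 CPM (SD, n = 4) to 69.2 ± 22.2 CPM (SD, n = 4) (log2 fold change 1.07, SE 0.27, adjusted p = 0.0435). Groups did not overlap for 7 of 43 members, where 13.2% of all genes did not. In the plot of 9-week levels the Cdkn1b-/- points of these 3 genes lie above the Cdkn1b+/+ points in both progenitor sorts.

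**Figure D1:**
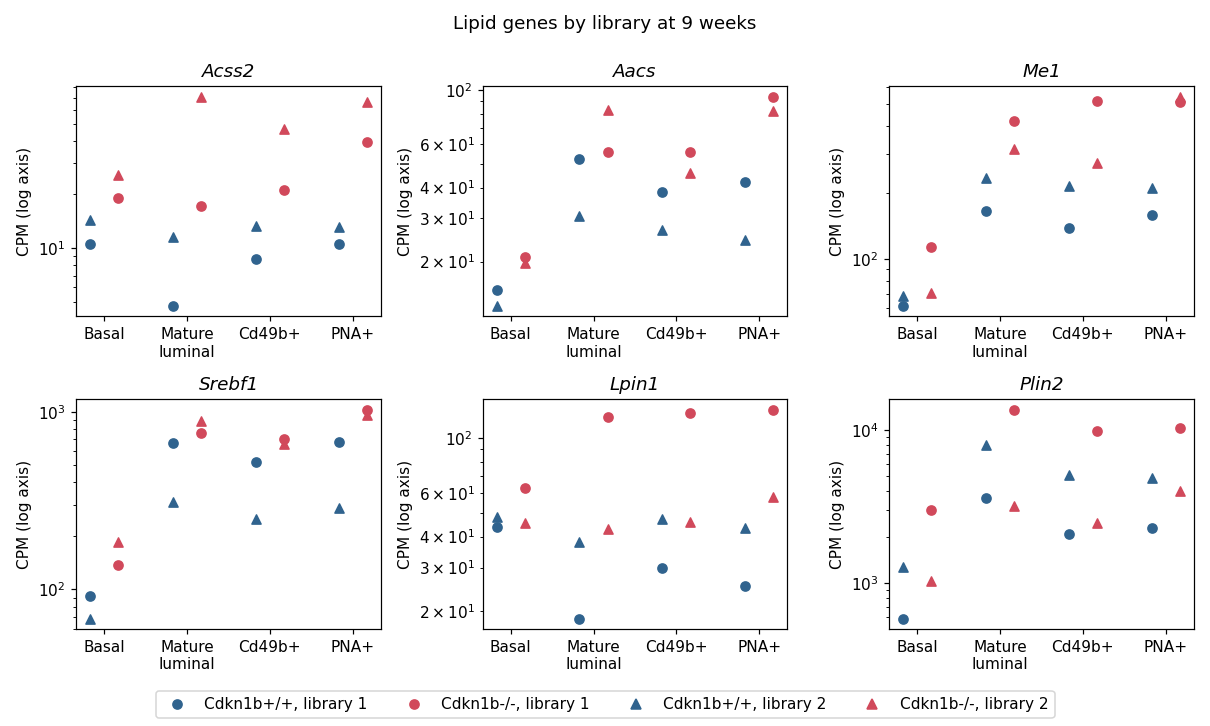
Level of 6 lipid genes in each 9-week library (y axis, TMM-scaled CPM on a log axis; x axis, sorted population), with Cdkn1b+/+ in blue, Cdkn1b-/- in red, circles for library 1 and triangles for library 2. In Cd49b+ and PNA+ progenitors Acss2 lay at 21.1 to 66.4 CPM in Cdkn1b-/- and 8.67 to 13.3 CPM in Cdkn1b+/+ libraries.

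These calls rest on few libraries. Libraries of the same number and genotype deviated together across populations (12 pairs of populations, r from 0.347 to 0.911), so the 4 libraries per genotype are not independent. With the Cd49b+ and PNA+ libraries of a number summed, no member passed, where 0.0392% of all genes did. The adjusted p was then 0.368 for Me1, 0.593 for Acss2 and 0.581 for Aacs, with log2 fold changes of 1.32, 1.88 and 1.01. None passed within Cd49b+ or PNA+ alone, where 0.0314% and 0.0943% of all genes did. Few genes of any kind passed in these fits. With the progenitor libraries alone in the fit 2 passed, Acss2 and Me1, where 3.97% of all genes did. The adjusted p for Aacs was 0.0607. Me1 passed without each of the 8 libraries in turn, where 1.23% to 9.45% of all genes passed. Acss2 no longer passed without Cdkn1b-/- PNA+ 1 (adjusted p = 0.0596) or 2 (0.0947), or without any 1 of the 4 Cdkn1b+/+ libraries (Cd49b+ 1, 0.0952, Cd49b+ 2, 0.0732, PNA+ 1, 0.0795, PNA+ 2, 0.0811). Aacs passed without 1 of the 8 libraries, Cdkn1b-/- Cd49b+ 2 (adjusted p = 0.0133), and in the other 7 cases its adjusted p was between 0.0563 and 0.141.

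Other roles held no member that passed. Srebf1, the activator of lipogenic genes, stood at 705 and 655 CPM in Cd49b+ and 1027 and 958 CPM in PNA+ progenitors of Cdkn1b-/- rats, and 519 and 249.7 CPM and 679 and 288 CPM in those of Cdkn1b+/+ rats. The groups overlapped: Cdkn1b+/+ PNA+ 1 lay within the Cdkn1b-/- range, and the other 3 Cdkn1b+/+ libraries lay under it (log2 fold change 0.95, SE 0.33, adjusted p = 0.141). Among desaturases and elongases, Scd2, a stearoyl-CoA desaturase, stood at 76.9 and 137 CPM in Cd49b+ and 103 and 146 CPM in PNA+ progenitors of Cdkn1b-/- rats, and 313 and 124 CPM and 389 and 139.7 CPM in those of Cdkn1b+/+ rats. The groups overlapped (log2 fold change -1.06, SE 0.46, adjusted p = 0.244), and reads of Scd2 and its neighbouring paralog Scd may have been divided in counting. Lpl, which frees fatty acids from lipoproteins for uptake, stood at 585 and 509.6 CPM in Cd49b+ and 548 and 670.4 CPM in PNA+ progenitors of Cdkn1b-/- rats, and 435 and 402 CPM and 471 and 431 CPM in those of Cdkn1b+/+ rats. Its groups did not overlap, with a small difference that missed the threshold (log2 fold change 0.41, SE 0.15, adjusted p = 0.148).

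Lpin1, a phosphatidic acid phosphatase, stood at 126 and 45.7 CPM in Cd49b+ and 129.9 and 57.7 CPM in PNA+ progenitors of Cdkn1b-/- rats, and 29.9 and 46.96 CPM and 25.4 and 43.3 CPM in those of Cdkn1b+/+ rats. Library 1 of each Cdkn1b-/- sort was high. Library 2 lay within the Cdkn1b+/+ range for Cd49b+ and above it for PNA+, so the groups overlapped (log2 fold change 1.30, SE 0.40, adjusted p = 0.0974). Xdh, the xanthine oxidoreductase of the droplet coat, stood at 966 and 418 CPM in Cd49b+ and 1043 and 875 CPM in PNA+ progenitors of Cdkn1b-/- rats, and 440.1 and 453 CPM and 530.4 and 436 CPM in those of Cdkn1b+/+ rats. Library Cd49b+ 2 of Cdkn1b-/- rats lay below every Cdkn1b+/+ library, and the other 3 lay above them all (log2 fold change 0.83, SE 0.29, adjusted p = 0.141). For the cholesterol genes the smallest unadjusted p was that of Nsdhl, a sterol dehydrogenase, which stood at 15.4 and 12.05 CPM in Cd49b+ and 16.3 and 13.5 CPM in PNA+ progenitors of Cdkn1b-/- rats, and 10.8 and 10.6 CPM and 12.2 and 9.62 CPM in those of Cdkn1b+/+ rats (log2 fold change 0.41, SE 0.19, adjusted p = 0.275). Of the 29 other genes of these pathways, 27 were tested and none passed, where 3.4% of all genes did.

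Milk protein genes moved with these members. The summed level of 6 milk protein genes was 91899 to 200109 CPM in Cdkn1b-/- progenitors and 18246 to 55054 CPM in Cdkn1b+/+ progenitors, with no overlap, and 1 of the 6, Wap, rose (3.97 log2, SE 0.39, adjusted p = 0.000216). The summed adipocyte markers were 223 to 504 CPM against 391 to 496 CPM, and the summed endothelial markers 150.4 to 895 CPM against 381 to 721 CPM, both overlapping. Basal markers summed to 233 to 1564 CPM in Cdkn1b-/- and 201 to 550 CPM in Cdkn1b+/+ progenitors. Myeloid markers summed to 448 to 1652 CPM against 238 to 662 CPM, and fibroblast markers to 183 to 977 CPM against 514 to 1349 CPM. These overlapped too, but the highest basal and myeloid sums were in Cdkn1b-/- libraries. None of 8 endothelial markers passed, and of 5 adipocyte markers tested 1, the droplet protein gene Cidec, rose (1.84 log2, SE 0.43, adjusted p = 0.0357). The part of these in the fatty acid result was not tested.

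In mature luminal and basal cells at 9 weeks no member passed the genotype test, where 0.133% and 0.0546% of all genes did. In mature luminal cells edgeR gave an unadjusted p under 0.05 for 5 higher and 0 lower beside 7.15% of all genes. DESeq2 called 1, Acss2, where it called 1.28% of all genes. There Acss2 stood at 17.3 and 70.8 CPM in Cdkn1b-/- and 4.72 and 11.5 CPM in Cdkn1b+/+ libraries (log2 fold change 2.44, SE 0.63, adjusted p = 0.246), and every Cdkn1b-/- value was again the higher. In basal cells the unadjusted count was 4 higher and 2 lower beside 9.09% of all genes. DESeq2 called 2, Lpl and Dgat1, where it called 1.31% of all genes. Basal Lpl stood at 105 and 113 CPM against 48.9 and 57.2 CPM (log2 fold change 1.04, SE 0.21, adjusted p = 0.135), and Dgat1, which adds the last acyl chain of triglycerides, at 82.9 and 59.4 CPM against 34.8 and 39.6 CPM (log2 fold change 0.94, SE 0.20, adjusted p = 0.175). Beside these basal values, summed adipocyte markers were 347 to 459 CPM in Cdkn1b-/- and 129.5 to 186 CPM in Cdkn1b+/+ basal libraries, luminal markers 6292 to 7094 CPM and 4039 to 5844 CPM, and milk protein genes 25930.4 to 30523 CPM and 4168 to 5993 CPM, none of them overlapping. Their part in the basal values was not tested. For each role, the member with the smallest unadjusted p had a log2 fold change of 0.76 for Srebf1, 2.44 for Acss2, -0.38 for Fads1, 0.47 for Lpl, 0.89 for Dgat2, 0.54 for Plin2 and 0.75 for Fdft1 in mature luminal cells. In basal cells these were 1.01 for Srebf1, 2.13 for Thrsp, 0.34 for Elovl1, 1.04 for Lpl, 0.94 for Dgat1, 0.59 for Xdh and -0.95 for Cyp51. The basal cholesterol genes had a median of -0.41 and 4 of 16 were above 0, where 50.2% of all genes were. None of them passed.

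**Figure D2:**
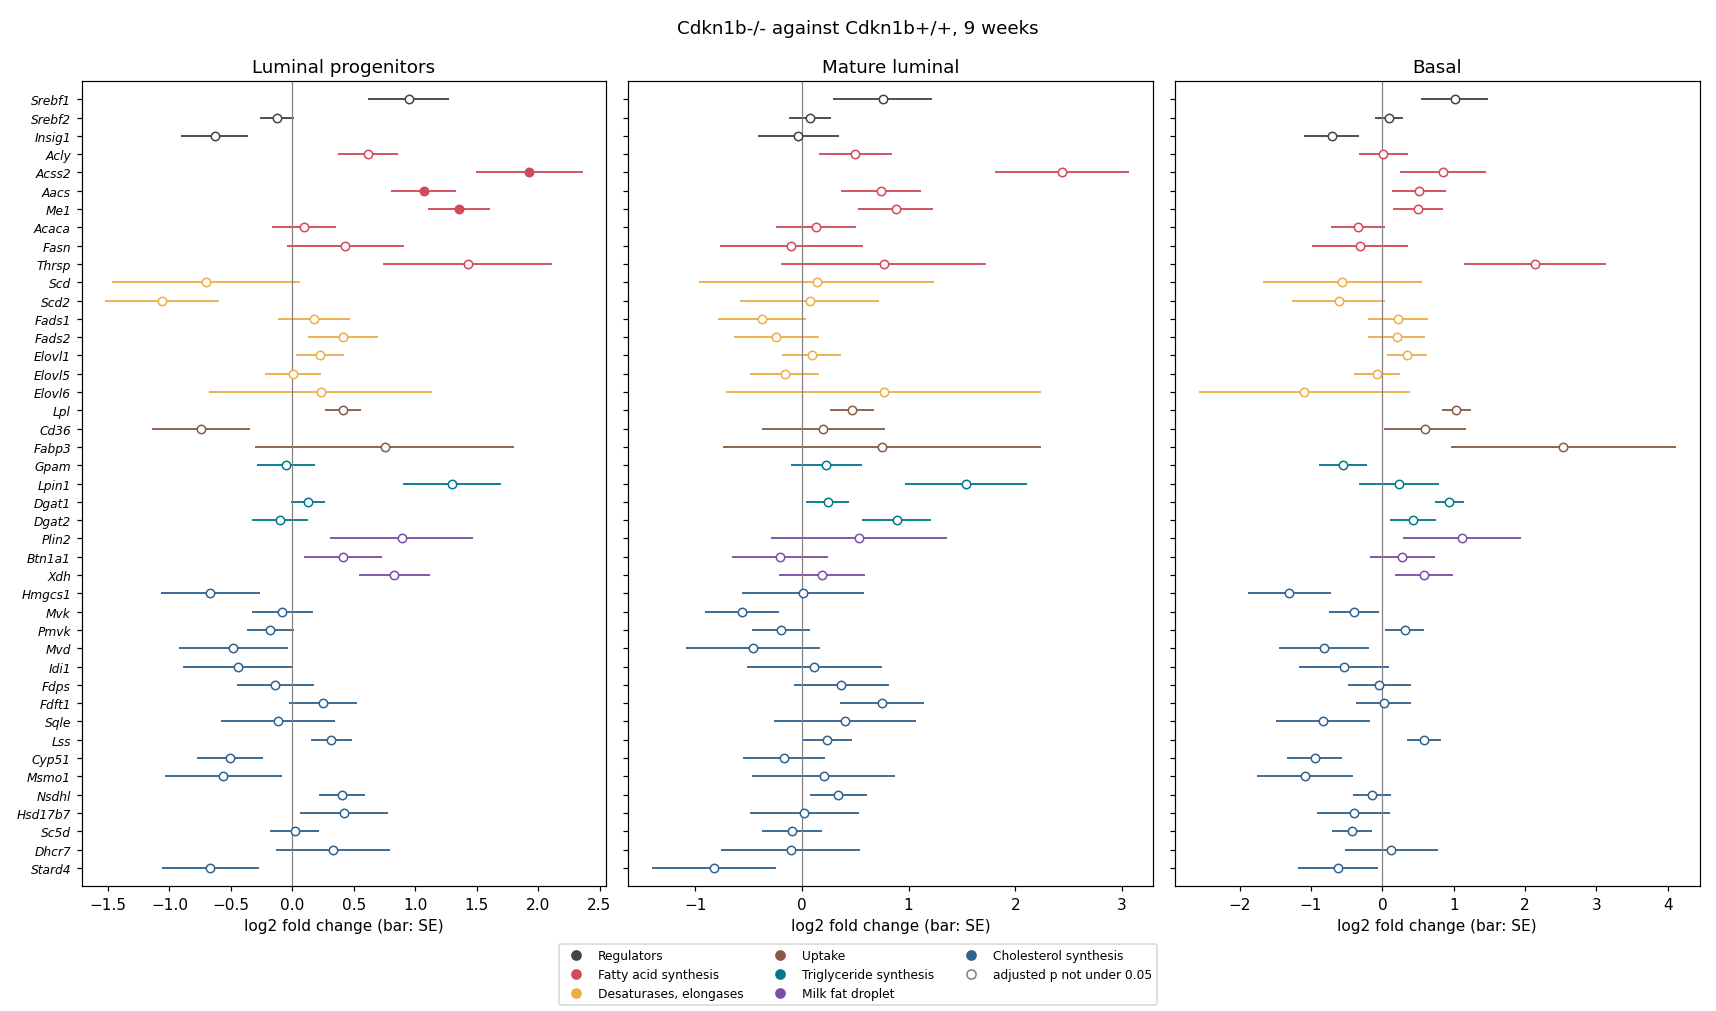
Log2 fold change of each member between Cdkn1b-/- and Cdkn1b+/+ cells at 9 weeks (x axis, bars are SE; y axis, members in order of role, coloured by role) in progenitors, mature luminal and basal cells, with filled points for adjusted p under 0.05. The 3 filled points are Acss2, Aacs and Me1 in progenitors, and all other points are open.

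A difference between populations in the response to genotype was tested directly. No member passed between progenitors and mature luminal cells or between progenitors and basal cells, where 0% of all genes passed in both. The unadjusted counts (edgeR) were 0 higher and 1 lower beside 1.75% of all genes and 0 higher and 2 lower beside 7.23%. DESeq2 called 0 members in both, where it called 0% and 0.64% of all genes. The difference for Acss2 between progenitors and mature luminal cells was -0.51 log2 (SE 0.73), so the response is not shown to be limited to progenitors. By role, the smallest unadjusted p went with differences of -0.60 for Insig1, 0.48 for Me1, -1.13 for Scd2, -0.95 for Cd36, -0.99 for Dgat2, 0.64 for Xdh and 0.48 for Mvk against mature luminal cells. Against basal cells they were -0.22 for Srebf2, 0.85 for Me1, 1.33 for Elovl6, -0.63 for Lpl, -0.81 for Dgat1, 0.24 for Xdh and 0.55 for Nsdhl. Elovl6 was near the floor in every library, so its difference is not to be read. Between the sorts, no member passed between PNA+ and Cd49b+ progenitors, where 0% of all genes did. Unadjusted, edgeR gave 0 higher and 0 lower beside 3.05% of all genes, and DESeq2 called 0 members beside 0.35% of all genes. The smallest p by role went with 0.41 for Srebf1, 0.37 for Aacs, 0.33 for Fads2, -0.70 for Cd36, 0.16 for Gpam, 0.26 for Xdh and -0.49 for Stard4.

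Library pairs carried their own lipid profiles. In Cdkn1b+/+ rats, Fabp3, a fatty acid binding protein, stood at 35.5 and 3.22 CPM in basal, 297 and 14.4 in mature luminal, 152 and 9.19 in Cd49b+ and 245 and 8.87 in PNA+ libraries 1 and 2. Thrsp, a small nuclear regulator of lipogenesis, stood at 124 and 34.2, 1718 and 279, 759.6 and 137 and 917 and 134 CPM in the same order. Library 2 was the lower in each of the 4 populations for both genes. Plin2, the main coat protein of lipid droplets, ran the other way in Cdkn1b+/+ rats (3621 and 7901 CPM in mature luminal libraries) and was high in library 1 of all Cdkn1b-/- populations (13505 and 3194 CPM in mature luminal libraries). Libraries 1 and 2 differed over 2-fold in the same direction in all 4 populations for 5 of 43 members in Cdkn1b+/+ rats (Thrsp, Scd, Fabp3, Plin2 and Mvd) and for 2 in Cdkn1b-/- rats (Fasn and Plin2), against 3.93% and 1.9% of all genes. This spread between libraries is larger than the genotype difference for Plin2 in progenitors (log2 fold change 0.89, SE 0.58, adjusted p = 0.454).

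In Cdkn1b+/+ rats, progenitors differed from mature luminal cells in 1 member, Cd36, where 11% of all genes passed. Cd36, a fatty acid translocase that endothelial cells and adipocytes also carry, stood at 115 and 123 CPM in Cd49b+, 85.96 and 118 CPM in PNA+ and 14.2 and 8.30 CPM in mature luminal libraries. It was higher in progenitors (log2 fold change 3.29, SE 0.59, adjusted p = 0.0192), but its adjusted p was 0.0976 without mature luminal 1, 0.0782 without mature luminal 2, 0.0526 without Cd49b+ 2, 0.0536 without PNA+ 2 and 0.0781 with the sorts summed. The summed endothelial markers were 381 to 721 CPM in progenitors and 117 to 127 CPM in mature luminal cells, and the summed adipocyte markers 391 to 496 CPM and 173 to 182 CPM, with no overlap in either. Of 8 endothelial markers 4 (Kdr, Cdh5, Pecam1 and Emcn) were higher in progenitors, and of 5 adipocyte markers tested 1, Fabp4. The part of these in the Cd36 result was not tested.

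Because libraries of the same number deviated together within a genotype, the comparison was also fitted with the number as a block. Then 13 of 43 members passed, where 34.4% of all genes did: Insig1, Scd2, Lpl, Cd36, Gpam, Hmgcs1, Idi1 and Stard4 were higher in progenitors, and Thrsp, Fads2, Plin2, Mvk and Dhcr7 were lower. Insig1, which retains the Srebf proteins, stood at 222 and 271 CPM in Cd49b+, 236 and 298 in PNA+ and 78.9 and 171 in mature luminal libraries (log2 fold change 1.04, SE 0.35, adjusted p = 0.0695 without the block). Stard4, a cholesterol carrier, stood at 13.6 and 10.8, 11.3 and 10.4 and 4.90 and 3.06 CPM (log2 fold change 1.53, SE 0.52, adjusted p = 0.0735). For both, the progenitor values lay above the mature luminal ones.

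Without the block, the remaining roles were described by their smallest unadjusted p. Thrsp stood at 759.6 and 137, 917 and 134 and 1718 and 279 CPM in the same order of populations (log2 fold change -1.04, SE 0.80, adjusted p = 0.419). Fads2, the delta-6 desaturase, stood at 101 and 66.9, 134 and 59.9 and 210.0 and 130.4 CPM (log2 fold change -0.91, SE 0.34, adjusted p = 0.0923). The groups overlapped for both genes. Dgat2, the other enzyme that completes triglycerides, stood at 49.3 and 44.1, 59.99 and 44.6 and 23.7 and 39.03 CPM (log2 fold change 0.66, SE 0.29, adjusted p = 0.148). Xdh stood at 440.1 and 453, 530.4 and 436 and 723 and 624 CPM (log2 fold change -0.54, SE 0.34, adjusted p = 0.324). For Dgat2 the progenitors were the higher and for Xdh the lower, with no overlap. Of 27 other pathway genes tested 1 passed, Mfge8, a milk fat globule protein, which was lower in progenitors (5763 ± 1051 against 12401 ± 3188 CPM, SD, n = 4 and 2, adjusted p = 0.0275).

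More members separated basal from luminal cells. In Cdkn1b+/+ rats of 9 weeks, 17 members were lower and 4 higher in basal than in mature luminal cells, where 20.9% of all genes passed. All 3 droplet genes and 5 of 7 fatty acid synthesis genes were lower in basal cells, with role medians of -3.01 and -1.62 log2. The cholesterol genes were divided, with 2 of 16 higher and 2 lower in basal cells and a median of -0.06. The members lower in basal cells were Srebf1, Acly, Aacs, Me1, Fasn, Thrsp, Fads1, Fads2, Elovl5, Lpl, Gpam, Dgat1, Plin2, Btn1a1, Xdh, Pmvk and Dhcr7.

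Srebf1 stood at 92.1 and 68.4 CPM in basal and 668 and 310.0 CPM in mature luminal libraries (log2 fold change -2.61, SE 0.49, adjusted p = 0.00249). Thrsp stood at 124 and 34.2 CPM in basal and 1718 and 279 CPM in mature luminal libraries (log2 fold change -3.65, SE 1.06, adjusted p = 0.026). Both were lower in basal libraries than in the lowest luminal library. Lpl stood at 48.9 and 57.2 CPM in basal and 340.1 and 263 CPM in mature luminal libraries (log2 fold change -2.51, SE 0.22, adjusted p = 3.25e-05). Btn1a1, a butyrophilin of the droplet membrane, stood at 29.8 and 44.4 CPM in basal and 396 and 417 CPM in mature luminal libraries (log2 fold change -3.46, SE 0.49, adjusted p = 0.000478). These were lower without overlap, as were the 2 other droplet genes. Xdh stood at 61.3 and 106 CPM in basal and 723 and 624 CPM in mature luminal libraries (log2 fold change -3.01, SE 0.44, adjusted p = 0.000512), and Plin2 at 588 and 1287 CPM in basal and 3621 and 7901 CPM in mature luminal libraries (log2 fold change -2.62, SE 0.87, adjusted p = 0.0474).

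The 4 members higher in basal cells belonged to 3 roles. Scd2 stood at 356 and 295 CPM in basal and 90.6 and 66.01 CPM in mature luminal libraries (log2 fold change 2.06, SE 0.67, adjusted p = 0.0448), and Dgat2 at 44.9 and 96.7 CPM in basal and 23.7 and 39.03 CPM in mature luminal libraries (log2 fold change 1.17, SE 0.33, adjusted p = 0.0209). Sqle, the squalene epoxidase, stood at 51.1 and 17.04 CPM in basal and 6.47 and 10.3 CPM in mature luminal libraries (log2 fold change 2.03, SE 0.68, adjusted p = 0.0496), and Cyp51, the lanosterol demethylase, at 364 and 147 CPM in basal and 86.4 and 119 CPM in mature luminal libraries (log2 fold change 1.32, SE 0.39, adjusted p = 0.0271). Basal library 1 was far above basal 2 for both of these sterol genes and for Idi1: the latter, the isopentenyl diphosphate isomerase, stood at 170.1 and 37.8 CPM in basal and 31.95 and 24.9 CPM in mature luminal libraries. Without basal 1, 7 members passed, where 12.6% of all genes did, and Sqle and Cyp51 were not among them. Leaving out mature luminal 1 or 2 or basal 2 likewise left 1 library in a group, and fewer members passed there too. Of 27 other pathway genes tested, 2 were higher and 7 lower in basal cells.

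**Figure D3:**
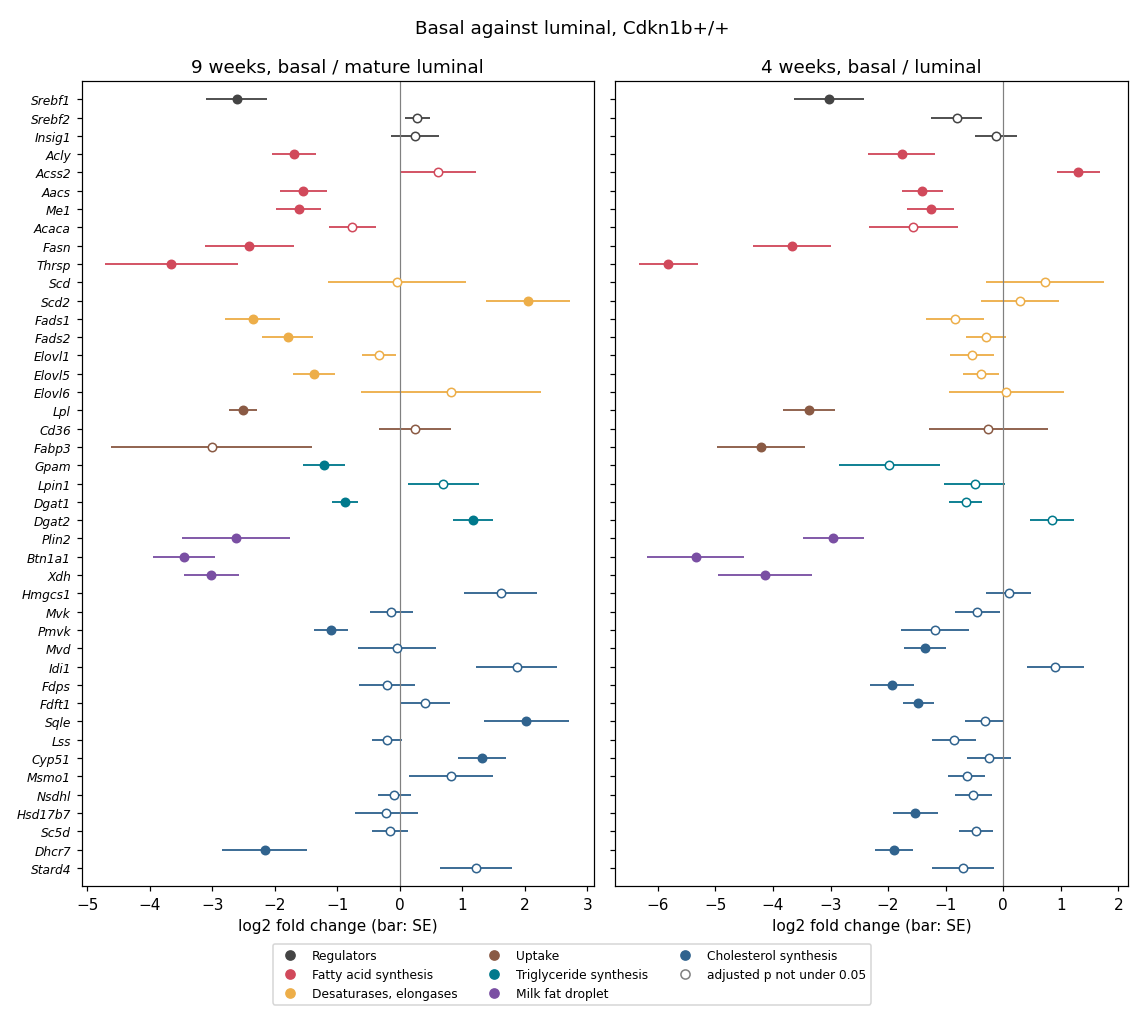
Log2 fold change of each member, basal over luminal, in Cdkn1b+/+ cells (x axis, bars are SE; y axis, members in order of role) at 9 weeks against mature luminal cells and at 4 weeks against all luminal cells; filled points have adjusted p under 0.05. Droplet genes lie between -3.46 and -2.62 at 9 weeks and between -5.34 and -2.95 at 4 weeks, and the cholesterol genes fall on both sides of 0 at 9 weeks.

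At 4 weeks, 16 members were lower and 1 higher in basal than in luminal Cdkn1b+/+ cells, where 23.5% of all genes passed. Thrsp stood at 4.07, 3.87 and 5.00 CPM in basal and 341, 303 and 136 CPM in luminal libraries (log2 fold change -5.82, SE 0.51, adjusted p = 8.44e-06), and Btn1a1 at 1.65, 2.73 and 4.90 CPM in basal and 43.9, 234 and 117 CPM in luminal libraries (log2 fold change -5.34, SE 0.84, adjusted p = 0.000483). Fabp3 stood at 0.961, 1.04 and 1.36 CPM in basal and 23.6, 35.6 and 7.01 CPM in luminal libraries (log2 fold change -4.20, SE 0.77, adjusted p = 0.00138). All 3 were near the bottom of their range in every basal library. Xdh stood at 7.97, 17.9 and 24.9 CPM in basal and 124, 591 and 225 CPM in luminal libraries (log2 fold change -4.14, SE 0.82, adjusted p = 0.00244), Fasn at 18.95, 34.3 and 39.3 CPM in basal and 157, 725 and 354 CPM in luminal libraries (log2 fold change -3.67, SE 0.68, adjusted p = 0.00154) and Lpl at 14.6, 47.8 and 33.3 CPM in basal and 284, 404 and 368 CPM in luminal libraries (log2 fold change -3.38, SE 0.45, adjusted p = 0.000146). Acss2 was the 1 member higher in basal cells, at 29.1, 34.1 and 16.3 CPM in basal and 8.41, 10.7 and 14.9 CPM in luminal libraries (log2 fold change 1.31, SE 0.37, adjusted p = 0.0209).

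Cholesterol genes at this age were lower in basal cells where they passed. These were Mvd, Fdps, Fdft1, Hsd17b7 and Dhcr7, and the role median was -0.67 log2 beside -0.05 over all genes. Fdps, the farnesyl diphosphate synthase, stood at 126, 79.1 and 90.9 CPM in basal and 508, 270.2 and 424 CPM in luminal libraries (log2 fold change -1.93, SE 0.39, adjusted p = 0.00258), and Dhcr7, the last enzyme of cholesterol synthesis, at 17.6, 23.9 and 18.7 CPM in basal and 68.1, 95.02 and 74.7 CPM in luminal libraries (log2 fold change -1.90, SE 0.33, adjusted p = 0.000902). No desaturase, elongase or triglyceride gene passed. The smallest unadjusted p in these roles were those of Fads1, the delta-5 desaturase (90.8, 131 and 129 CPM in basal and 134, 359.7 and 164 CPM in luminal libraries, log2 fold change -0.83, SE 0.50, adjusted p = 0.282), and Gpam, the first acyltransferase of glycerolipids (2.98, 6.10 and 5.41 CPM in basal and 5.97, 30.3 and 23.7 CPM in luminal libraries, log2 fold change -1.98, SE 0.87, adjusted p = 0.131). Of 27 other pathway genes tested, 1 was higher and 8 were lower in basal cells.

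No member passed the genotype test at 4 or 6 weeks in either cell type, where 0% of all genes passed in each test. At 4 weeks edgeR gave an unadjusted p under 0.05 for 0 higher and 2 lower beside 3.6% of all genes in luminal cells. In basal cells it did so for 2 higher and 1 lower beside 2.57% of all genes. DESeq2 called 0 members in both, where it called 0% and 0.00828% of all genes. The genes that rose in 9-week progenitors stood as follows in 4-week luminal cells: Me1 at 134, 140.2 and 191 CPM in Cdkn1b-/- and 214, 279 and 205 in Cdkn1b+/+ libraries, Acss2 at 11.5, 11.03 and 15.2 and 8.41, 10.7 and 14.9 CPM, and Aacs at 50.5, 125 and 95.9 and 119.9, 103 and 122 CPM. For Acss2 and Aacs the genotypes overlapped, and for Me1 every Cdkn1b-/- library was the lower (log2 fold change -0.63, SE 0.40, adjusted p = 0.854). By role, the smallest unadjusted p went with log2 fold changes of -0.67 for Srebf1, -1.06 for Acly, -1.17 for Fads1, -2.10 for Fabp3, -1.05 for Lpin1, -1.40 for Xdh and 0.88 for Idi1 in luminal cells and of 0.47 for Srebf1, -1.04 for Aacs, 0.79 for Scd2, 0.44 for Fabp3, -0.34 for Dgat2, -0.79 for Xdh and 1.04 for Mvk in basal cells.

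At 6 weeks, the unadjusted counts were 9 higher and 2 lower beside 16.4% of all genes in luminal cells. In basal cells they were 2 higher and 0 lower beside 8.99% of all genes. DESeq2 called 7 members higher in Cdkn1b-/- luminal cells and 0 in basal cells, where it called 11.2% and 2.77% of all genes. Elovl6 was too low to test at this age, which left 42 members. Groups did not overlap for 26 of 42 members in luminal cells, where 49.7% of all genes did not. Xdh stood at 144 and 130.3 CPM in Cdkn1b-/- and 16.3 and 31.2 CPM in Cdkn1b+/+ luminal libraries (log2 fold change 2.54, SE 0.72, adjusted p = 0.171), Thrsp at 359.9 and 203 and 12.4 and 35.6 CPM (log2 fold change 3.56, SE 1.10, adjusted p = 0.188) and Fads1 at 117 and 37.4 and 0.479 and 4.91 CPM (log2 fold change 4.82, SE 1.30, adjusted p = 0.152). The library labelled Cdkn1b-/- luminal 2 held 8689 CPM of adipocyte and 2292 CPM of endothelial markers, against 117 and 172 CPM in luminal 1, and Cd36 stood at 873 and 33.96 CPM. Without luminal 1, so that luminal 2 alone stood for the genotype, 10 members passed (Insig1, Me1, Cd36, Lpin1, Dgat2, Mvd, Idi1, Lss, Cyp51 and Sc5d), 3 higher and 7 lower in Cdkn1b-/- cells, where 17.9% of all genes passed, and without luminal 2 none did. Luminal 1 is also, with basal 1, a library whose title carries 5.3, where the Cdkn1b+/+ libraries carry 5.9. Luminal markers summed to 7862 to 14078 CPM in Cdkn1b-/- and 14600 to 19556 CPM in Cdkn1b+/+ luminal libraries. Milk protein genes summed to 9278 to 40973 CPM and 1932 to 4599 CPM, with no overlap in either. The part of these in the luminal values was not tested. The smallest unadjusted p by role went with -1.21 for Insig1, 3.56 for Thrsp, 4.82 for Fads1, 6.02 for Cd36, 1.79 for Dgat2, 2.54 for Xdh and 2.48 for Idi1 in luminal cells and with 0.70 for Insig1, -0.88 for Aacs, 2.69 for Fads1, 1.49 for Cd36, 1.72 for Gpam, -1.49 for Plin2 and -1.02 for Fdps in basal cells.

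Between 4 and 6 weeks, Fads1, Fads2, Xdh and Thrsp fell in Cdkn1b+/+ luminal cells. These were 4 of 42 members, and none rose, where 3.1% of all genes passed, and the median log2 change was -1.28 beside -0.13 over all genes. None of the 16 cholesterol genes was above 0, where 44.8% of all genes were, and none of them passed. Fads1 stood at 134, 359.7 and 164 CPM at 4 weeks and 0.479 and 4.91 CPM at 6 weeks (log2 fold change -6.32, SE 1.06, adjusted p = 0.0057). Fads2 stood at 37.3, 53.8 and 33.1 CPM at 4 weeks and 7.09 and 6.13 CPM at 6 weeks (log2 fold change -2.65, SE 0.71, adjusted p = 0.0487). Both desaturases of polyunsaturated fatty acids were lower in each 6-week library. Xdh stood at 124, 591 and 225 CPM at 4 weeks and 16.3 and 31.2 CPM at 6 weeks (log2 fold change -3.72, SE 0.87, adjusted p = 0.0291), and Thrsp at 341, 303 and 136 CPM at 4 weeks and 12.4 and 35.6 CPM at 6 weeks (log2 fold change -3.44, SE 0.85, adjusted p = 0.0361). In the other roles the smallest unadjusted p went with log2 changes of -0.83 for Srebf1, -1.93 for Lpl, -1.36 for Dgat2 and -3.34 for Dhcr7.

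This count depended on which libraries shared the fit. With the sparse libraries left out 13 members fell, where 15.7% of all genes passed, and with the compared libraries alone 11 fell, where 13.7% did. Leaving out luminal library 1 of 6 weeks left no member past the threshold. That fit, like the one without luminal 2 of 6 weeks, left 1 library in the 6-week group. Without 4-week luminal 1, Fads1 and Xdh passed (1.11% of all genes). Without 4-week luminal 2 it was Fads1 (0.672%), and without 4-week luminal 3 Thrsp, Fads1 and Xdh (1.13%). The 4- and 6-week libraries differ in counted reads (14674040 to 23045345 and 7985619 to 16390460) and in the number of genes with 10 or more counts (10419 to 11405 and 8160 to 11023), and in luminal cells in the share of reads in rows that name no gene (57.4% to 59.4% and 69.4% to 70.6%). Summed myeloid markers did not overlap between the ages, at 603 to 960.4 CPM and 137 to 232 CPM, nor did milk protein genes, at 6051 to 12563 CPM and 1932 to 4599 CPM. The same held for fibroblast markers, at 89.6 to 392 CPM and 15.7 to 33.7 CPM, and basal markers, at 40.9 to 62.3 CPM and 27.6 to 29.9 CPM. The part of these in the result was not tested. Of 29 other pathway genes tested in luminal cells, 2 fell and none rose.

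In Cdkn1b+/+ basal cells, Fads1 and Fads2 fell too and 3 members rose, where 10.5% of all genes passed. Fads1 stood at 90.8, 131 and 129 CPM at 4 weeks and 25.3, 9.28 and 4.32 CPM at 6 weeks (log2 fold change -3.17, SE 0.76, adjusted p = 0.0147), and Fads2 at 44.8, 27.7 and 23.2 CPM at 4 weeks and 9.96, 5.39 and 9.75 CPM at 6 weeks (log2 fold change -1.93, SE 0.59, adjusted p = 0.0426). In the 6-week Cdkn1b-/- libraries Fads1 stood at 95.02 and 62.4 CPM in basal and 117 and 37.4 CPM in luminal cells, above every Cdkn1b+/+ library of that age, and whether the age change differed by genotype was not tested. Basal markers summed to 6328 to 8005 CPM in Cdkn1b-/- and 2959.7 to 4085 CPM in Cdkn1b+/+ basal libraries of 6 weeks. Fibroblast markers summed to 2009 to 3029 CPM and 71.4 to 555 CPM, with no overlap in either. The part of these in the Fads1 values was not tested. Fasn, the fatty acid synthase, stood at 18.95, 34.3 and 39.3 CPM at 4 weeks and 162, 95.1 and 98.8 CPM at 6 weeks (log2 fold change 1.94, SE 0.56, adjusted p = 0.0339). Elovl1, an elongase of very long chains, stood at 126, 82.2 and 82.7 CPM at 4 weeks and 162, 207 and 361 CPM at 6 weeks (log2 fold change 1.33, SE 0.40, adjusted p = 0.0426). Plin2 stood at 325, 494 and 398 CPM at 4 weeks and 834, 3235 and 1166 CPM at 6 weeks (log2 fold change 2.10, SE 0.58, adjusted p = 0.0286). All 3 were higher in each 6-week library. At 4 and 6 weeks the basal libraries held 8206 to 8595 CPM and 2959.7 to 4085 CPM of basal markers, 3459.7 to 4167 CPM and 4805 to 6408 CPM of luminal markers and 1131 to 6018 CPM and 71.4 to 555 CPM of fibroblast markers, with no overlap in any of the 3. Myeloid markers (61.9 to 93.9 CPM and 15.8 to 33.4 CPM) did not overlap either. Nor did adipocyte (7.22 to 12.6 CPM and 1.53 to 5.78 CPM) and endothelial markers (7.73 to 15.8 CPM and 2.93 to 4.86 CPM). Their part in the result was not tested. Fads1 passed without each of the 6 libraries in turn. The other 4 each lost the call when any 1 of the 4-week libraries was left out. There 1 member passed, where 3.99%, 3.66% and 4.73% of all genes did without 4-week basal 1, 2 and 3. Without 6-week basal 1, 2 or 3 the members that passed were 6, 2 and 4, where 8%, 10.6% and 9.22% of all genes did. Without the sparse libraries 6 passed (17.9% of all genes), among them these 5 except Elovl1. In roles without a call, the smallest unadjusted p went with 0.83 for Srebf2, -0.53 for Lpl, -1.27 for Gpam and 1.30 for Fdps. Of 29 other pathway genes tested 4 rose.

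**Figure D4:**
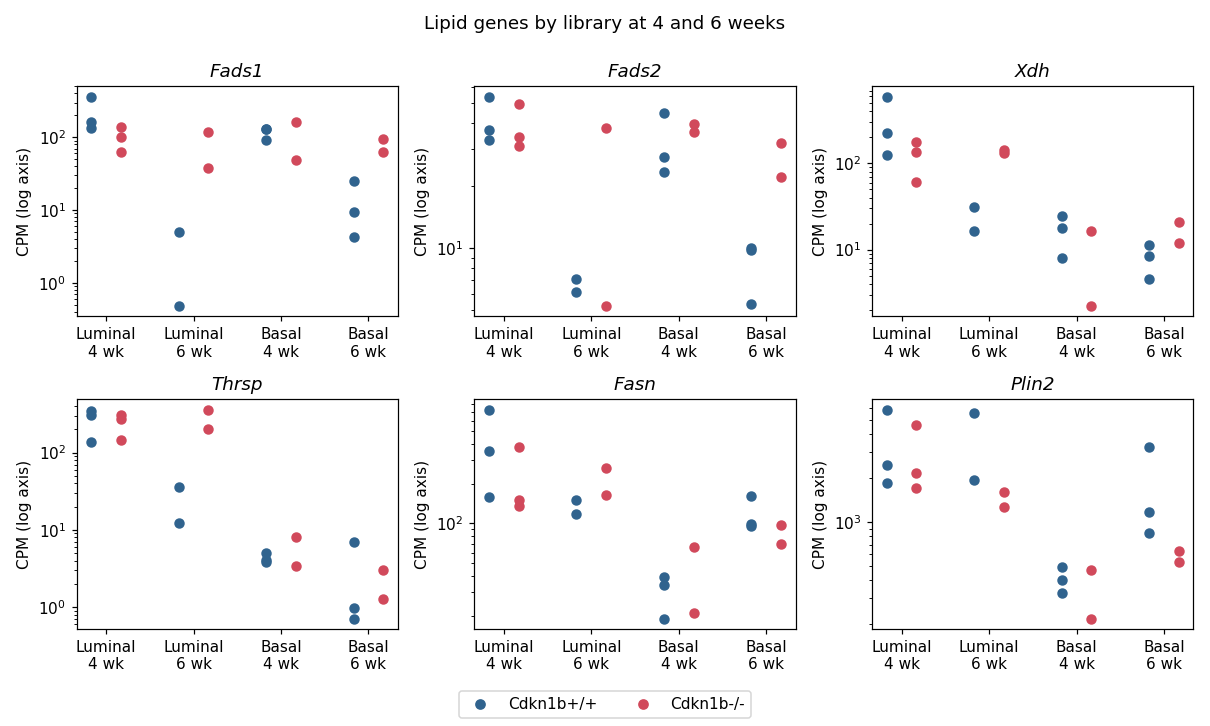
Level of 6 lipid genes in each library of 4 and 6 weeks (y axis, TMM-scaled CPM on a log axis; x axis, cell type and age), Cdkn1b+/+ in blue and Cdkn1b-/- in red. Fads1 in Cdkn1b+/+ luminal cells lay at 134 to 359.7 CPM at 4 weeks and 0.479 to 4.91 CPM at 6 weeks.

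E2 treatment gave no member past the threshold in luminal or in basal cells, where 0% of all genes passed in both. In luminal cells edgeR gave an unadjusted p under 0.05 for 2 higher and 4 lower beside 3.66% of all genes. DESeq2 called 2, Thrsp and Fabp3, both higher with E2, where it called 2.02% of all genes. Cholesterol genes had a median of -0.31 log2 and 3 of 16 were above 0, where 49.8% of all genes were. Fabp3 stood at 1.56 and 6.84 CPM in control ACI, 0 in control BN, 162 and 724 in E2-treated ACI and 65.8 in E2-treated BN libraries. Every E2 library lay above every control library (log2 fold change 7.69, SE 1.63, adjusted p = 0.99). With the BN control library at 0, the size of this fold is uncertain. Thrsp stood at 128 and 89.03 CPM in control ACI, 44.4 in control BN, 192 and 787 in E2-treated ACI and 404 in E2-treated BN libraries (log2 fold change 2.51, SE 0.71, adjusted p = 1). Insig1 stood at 658 and 259 CPM in control ACI, 312 in control BN, 80.98 and 132 in E2-treated ACI and 196 in E2-treated BN libraries (log2 fold change -1.63, SE 0.52, adjusted p = 1). For Thrsp the E2 libraries were the higher and for Insig1 the lower, again with no overlap.

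Idi1 stood at 214 and 145 CPM in control ACI, 67.9 in control BN, 86.7 and 81.4 in E2-treated ACI and 36.8 in E2-treated BN libraries (log2 fold change -1.02, SE 0.34, adjusted p = 1). The ACI values were lower with E2 and the BN control value lay within the E2 range. Elovl5, an elongase of polyunsaturated chains, stood at 67.5 and 37.02 CPM in control ACI, 14.9 in control BN, 59.7 and 82.7 in E2-treated ACI and 47.05 in E2-treated BN libraries (log2 fold change 0.85, SE 0.62, adjusted p = 1). Lpin1 stood at 310.0 and 178 CPM in control ACI, 101 in control BN, 53.9 and 43.1 in E2-treated ACI and 122 in E2-treated BN libraries (log2 fold change -1.52, SE 0.97, adjusted p = 1). Both overlapped between treatments. Xdh stood at 223 and 145 CPM in control ACI, 234 in control BN, 185 and 495 in E2-treated ACI and 731 in E2-treated BN libraries (log2 fold change 1.14, SE 0.84, adjusted p = 1). The E2-treated ACI luminal library 1 was sparse and listed 0 counts for 10 members, and without the sparse libraries the count of calls was 0 as well. Summed milk protein genes lay between 2924 and 7630.5 CPM in control and between 5456 and 75485 CPM in E2-treated luminal libraries. Luminal markers summed to 14577 to 20254 CPM in control and 6555 to 12854 CPM in E2-treated luminal libraries, with no overlap. Fibroblast markers summed to 53.9 to 1150 CPM and 99.9 to 4936 CPM, which overlapped. The part of these in the luminal E2 values was not tested.

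**Figure D5:**
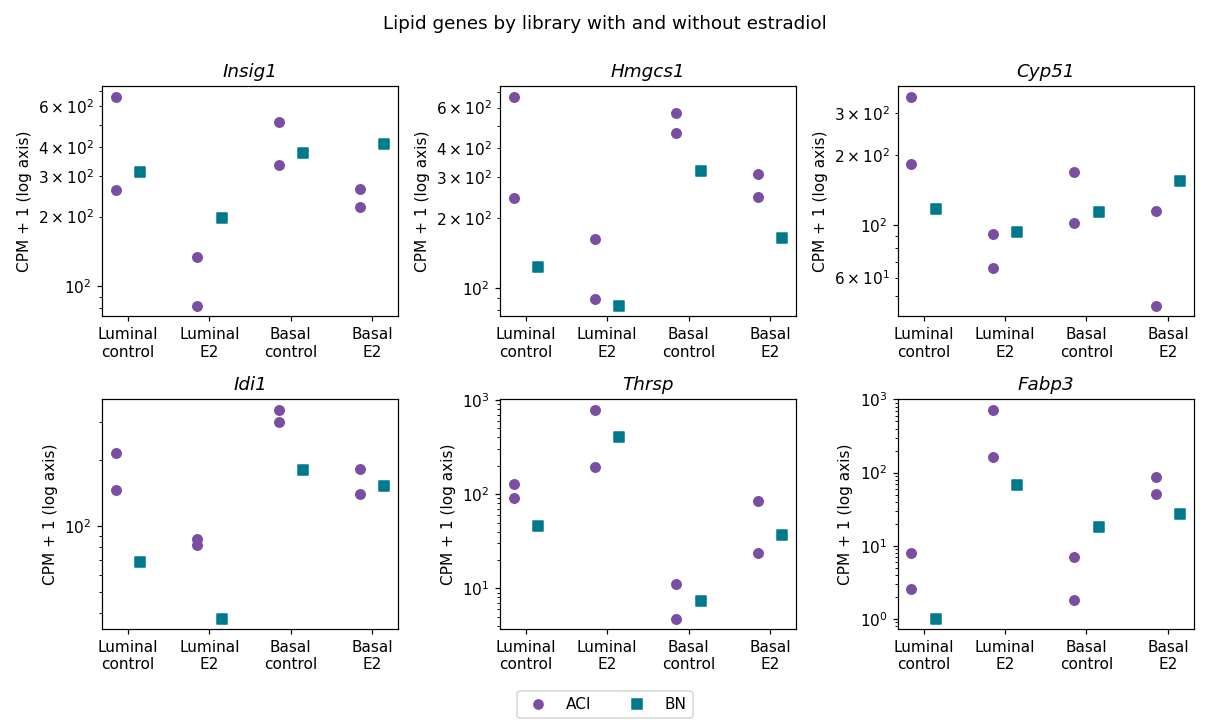
Level of 6 lipid genes in each library of the E2 experiment (y axis, TMM-scaled CPM + 1 on a log axis; x axis, cell type and treatment), ACI as circles and BN as squares. Luminal Insig1 lay at 259 to 658 CPM in control and 80.98 to 196 CPM in E2-treated libraries.

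In basal cells the unadjusted count with E2 was 3 higher and 0 lower beside 2.25% of all genes. DESeq2 called 1, Thrsp, where it called 1.46% of all genes. Thrsp stood at 10.05 and 3.75 CPM in control ACI, 6.41 in control BN, 22.7 and 83.3 in E2-treated ACI and 35.8 in E2-treated BN libraries (log2 fold change 2.79, SE 0.72, adjusted p = 1), every E2 library being the higher. Plin2 stood at 155 and 181 CPM in control ACI, 238 in control BN, 2403 and 315 in E2-treated ACI and 534 in E2-treated BN libraries (log2 fold change 2.42, SE 0.82, adjusted p = 1), and its highest value came from basal library 1 of E2-treated ACI rats, which was sparse. The smallest unadjusted p by role went with log2 fold changes of -0.90 for Srebf2, 2.79 for Thrsp, -0.87 for Elovl5, 3.22 for Fabp3, 0.98 for Dgat2, 2.42 for Plin2 and -0.74 for Idi1. Summed fibroblast markers lay between 1445 and 2749 CPM in control and between 521 and 15807 CPM in E2-treated basal libraries. Milk protein genes lay between 32.3 and 105 CPM and between 529 and 1989 CPM, with no overlap. The part of these in the basal E2 values was not tested.

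Strains did not differ past the threshold in any member in luminal or basal cells, where 0% of all genes passed in both, and BN was represented by 1 library per treatment and cell type. The unadjusted counts for ACI against BN were 3 higher and 1 lower beside 3.89% of all genes in luminal cells. In basal cells they were 0 higher and 1 lower beside 1.37% of all genes. DESeq2 called 2 members in luminal cells (Fabp3 and Idi1) and 1 in basal cells (Scd), beside 3.79% and 0.915% of all genes. By role, luminal log2 differences with the smallest unadjusted p were 1.21 for Srebf1, -1.93 for Fasn, 1.16 for Elovl5, 4.03 for Fabp3, 1.94 for Dgat2, -2.22 for Plin2 and 1.30 for Idi1, and basal differences were -0.44 for Srebf2, -1.36 for Me1, 1.45 for Cd36, 2.95 for Gpam, 0.47 for Xdh and 1.46 for Fdft1. The size of the luminal Fabp3 difference is uncertain, since the BN control library was at 0. Basal Scd, a stearoyl-CoA desaturase, had counts in 1 of 4 ACI libraries (0.0407 CPM) and stood at 6.46 and 5.63 CPM in BN libraries, and its reads can be shared with Scd2. Luminal Plin2 stood at 796 and 329.6 CPM in control ACI, 1768 in control BN, 480.2 and 1101 in E2-treated ACI and 5219 in E2-treated BN libraries, both BN values being above all ACI values (log2 fold change -2.22, SE 0.78, adjusted p = 1). The difference between strains in the luminal E2 effect was tested too, and no member passed, where 0% of all genes did. Unadjusted, edgeR gave 1 higher and 2 lower beside 4.54% of all genes, and DESeq2 called 4 members beside 4.57% of all genes. Fasn stood at 487 and 90.3 CPM in control ACI, 60.5 in control BN, 71.04 and 49.7 in E2-treated ACI and 816 in E2-treated BN libraries (log2 difference -6.01, SE 1.41, adjusted p = 0.951). In ACI rats both E2 values were under both controls, and in BN rats the E2 value was above. The smallest p by role went with -4.14 for Srebf1, -6.01 for Fasn and -1.07 for Plin2. In the remaining roles (Scd, Fabp3, Gpam and Stard4) at least 1 library was at 0, and no fold is given.

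Over all 12 libraries of this experiment, 1 member was higher and 1 lower in basal than in luminal cells, where 1.86% of all genes passed. Idi1 lay at 139 to 339.9 CPM in basal and 36.8 to 214 CPM in luminal libraries (log2 fold change 1.17, SE 0.26, adjusted p = 0.0485), and Thrsp at 3.75 to 83.3 and 44.4 to 787 CPM (log2 fold change -3.46, SE 0.48, adjusted p = 0.0104). The ranges overlapped for both. Thrsp passed without each of the 12 libraries in turn. With any 1 library left out Idi1 no longer passed (adjusted p from 0.0558 to 0.133), and with libraries blocked by title number 3 members passed (2.46% of all genes), Srebf1, Thrsp and Btn1a1, all lower in basal cells. Without the sparse libraries 7 members passed (5.71% of all genes), Idi1 higher and Srebf1, Me1, Thrsp, Plin2, Btn1a1 and Xdh lower in basal cells. In the other roles the smallest unadjusted p went with -2.60 for Srebf1, 1.16 for Lpl, -1.47 for Lpin1 and -2.55 for Xdh. Among desaturases it was that of Scd, at 0 to 6.46 CPM in basal and 0 to 39.98 CPM in luminal libraries. Summed adipocyte markers were 49.2 to 2545 CPM in control and 144 to 1323 CPM in E2-treated basal libraries. In luminal libraries they were 9.59 to 96.5 CPM and 26.4 to 698 CPM. Their part in the differences between cell types, such as that of Lpl, was not tested.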

How the data were processed

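The authors sorted mammary epithelial cells, sequenced RNA and deposited raw counts of reads per gene, 1 table per library, with no normalization. Per the submitters' processing notes they used FastQC, STAR 2.5.1b, HTSeq and the rn6 genome. Rows that name no gene (47.1% to 77.0% of the reads in a table) were left out of library sizes. Progesterone receptor ChIP-seq peaks were not analysed here.

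The counts were fitted by group within each experiment (4 and 6 weeks together for the change with age) with edgeR 4.0.16 in R 4.3.3 (limma 3.58.1): filterByExpr, TMM scaling and the quasi-likelihood test, two-sided, with Benjamini-Hochberg adjustment over all genes tested and a threshold of 0.05. Standard errors are the log2 fold change over the square root of F. DESeq2 1.42.0 was an alternative, as were RLE scaling, other filters, compared libraries alone, a replicate block and leaving out each library. Figures were drawn with matplotlib 3.10.9 in Python 3.11.15.

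The members and lists were chosen with earlier results of these data known. In each comparison the text names, per role, the members that passed (if over 12, the 6 with the largest change in each direction) or else the one with the smallest unadjusted p, and other genes only where a result turns on them. Libraries of a genotype with the same number deviated together at 9 weeks (r from 0.347 to 0.911, 12 pairs of populations). There these numbers pair the populations. At 4 weeks libraries with a shared title stem correlated at 0.208 to 0.769 (5 pairs). In the E2 experiment r was 0.131 in control and 0.206 in E2-treated ACI rats, the same for both libraries of a group since their deviations mirror each other. These E2 values do not by themselves show a pairing. At 6 weeks basal and luminal libraries share title stems too, with r from -0.00633 to 0.114. No pair of the 28 pairs of replicates was a duplicate library (chi-square over degrees of freedom 45.2 to 811). Total counts per library set the precision.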

Additional observations from a re-analysis of the deposited data

Results flagged for a closer look

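In each genotype, the 4 progenitor libraries were searched for 1 library far from the other 3 by Dixon's test at its 95% critical value, which chance passes in about 1 in 20 groups. In 86 groups, 1 for each member and genotype, 3 such libraries were found. Me1 stood at 271 CPM in Cdkn1b-/- Cd49b+ library 2, under the other 3 (513 to 541 CPM). Without that library the adjusted p for Me1 was 0.00208. Acaca, the acetyl-CoA carboxylase, stood at 14.2 CPM in Cdkn1b+/+ Cd49b+ library 2, under the other 3 (15.9 to 16.1 CPM). Gpam stood at 39.4 CPM in Cdkn1b-/- PNA+ library 2, above the other 3 (25.7 to 27.5 CPM).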

How the results depend on the processing

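Counts of members that passed were recomputed under each alternative, and each share in parentheses is that of all genes under the same setting. DESeq2 called 6 instead of 3 for genotype in progenitors (8.56%), 1 instead of 0 in mature luminal (1.28%) and 2 instead of 0 in basal cells (1.31%), 8 instead of 1 between progenitors and mature luminal cells (19.8%), 7 instead of 0 for genotype in luminal cells at 6 weeks (11.2%), 12 instead of 4 between 6 and 4 weeks in luminal (13.1%) and 9 instead of 5 in basal cells (21%), 2 and 1 for E2 in luminal and basal cells (2.02% and 1.46%), 2 and 1 for strain (3.79% and 0.915%), 8 instead of 2 between basal and luminal cells of the E2 experiment (14.3%) and 4 for the difference of E2 effects (4.57%). The compared libraries alone gave 2 for genotype in progenitors (3.97%), 4 between progenitors and mature luminal cells (17%), 11 between basal and mature luminal cells (10.6%), and 11 in luminal (13.7%) and 3 in basal cells (8.28%) between ages. In progenitors, summing both sorts, and Cd49b+ alone and PNA+ alone (the last 2 chosen after seeing the data), each gave 0 for genotype (0.0392%, 0.0314% and 0.0943%) and 0 against mature luminal cells (0% in each).

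Library number as a replicate block gave 4 for genotype in progenitors (Acly with the other 3, 5.24%), 1 in mature luminal cells (0.328%) and 0 in basal cells (0.109%), 13 between progenitors and mature luminal cells (34.4%), 26 between basal and mature luminal cells (38.1%), 22 between basal and luminal cells at 4 weeks (31.8%) and 3 in the E2 experiment (2.46%). Since same-numbered libraries of the 2 genotypes correlated at -0.397 to -0.117, the crossed pairing was added after seeing the data and gave 7, 1 and 2 for genotype in progenitors, mature luminal and basal cells (10%, 1.03% and 0.601%). With 2 libraries per group, crossing the numbers turns the sign of these correlations, so this pairing was bound to take up more of the spread. The labels link no library of one genotype to one of the other, so neither block for genotype rests on the design. No conclusion is drawn from these counts. Leaving out the 4 sparse libraries, also added after seeing the data, gave 13 in luminal cells between ages (15.7%) and 7 between basal and luminal cells of the E2 experiment (5.71%), where RLE scaling gave 1 (1.75%) and a minimum of 10 counts in every library gave 4 (8.87%).

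With 1 library left out, counts ran from 1 to 6 for genotype in progenitors (1.23% to 9.45%). The count there was 1 without any Cdkn1b+/+ or Cdkn1b-/- PNA+ library. Between progenitors and mature luminal cells they ran from 0 to 2 (0% to 8.95%), and at 4 weeks from 14 to 15 (17.5% to 20.4%). In basal cells between ages they ran from 1 to 6 (3.66% to 10.6%), and in the E2 experiment from 1 to 4 (0.275% to 3.39%). Counts also moved between basal and mature luminal cells, for genotype in luminal cells at 6 weeks and between ages in luminal cells. There a group could be left with 1 library. Other counts stayed at 0. The difference of E2 effects could not be fitted without either BN luminal library. In the 8 comparisons where named members were followed under each alternative (75 results), none reversed, and in the others the direction of single members was not followed. A group left with 1 library was assumed to vary like the others. Elovl6 stayed at or under 0.637 CPM in every library, and its changes were not detectable at this depth. The cause of these shifts was not tested.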
